A study of Bos taurus with 8 samples.

Results

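Of the 12639 genes named on the array, 10 bovine genes of the actin machinery are described here across 8 neutrophil arrays. They are 4 subunits of the Arp2/3 complex (ARPC1B, ARPC2, ARPC3 and ARPC5), beta-actin (ACTB), 3 actin-binding proteins (cofilin, CFL1; profilin, PFN1; and coronin 1A, CORO1A), the small GTPase RAC1, and VAV1, a guanine nucleotide exchange factor that activates it. Their probes were found through the accession that the scanner files give each spot, which gave 29 of 43653 probes. The genes were selected on these data, with earlier results of the contrast between the time points known, so every difference of theirs between the time points is a description and carries no test.

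The RNA came from neutrophils, the most numerous phagocytes of inflamed tissue, isolated from jugular blood of female Holstein Friesian cows around calving, a period known for udder and uterine infections. Group C-14 holds 4 arrays of blood taken 14 days before the expected calving date, and group C+7 holds 4 arrays of blood taken 7 days after calving. The labels name no treatment, genotype or age. The series text names 3 cows against 4 arrays per time point, and the labels do not say which cow gave which array, so arrays of the same cow cannot be recognised and every spread given here is a spread between arrays. The isolation method is not given in the sources used here.

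The Arp2/3 complex binds the side of an existing actin filament and starts a new branch from it. It is switched on by proteins of the WASP and WAVE families, which act downstream of small GTPases such as RAC1, and RAC1 is itself loaded with GTP by exchange factors such as VAV1. Profilin supplies actin monomers to growing ends, cofilin severs older filaments, and coronin 1A binds filaments together with the Arp2/3 complex. In neutrophils this branched network pushes the leading edge forward during chemotaxis and closes the phagocytic cup around a microbe.

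Few probes carried signal on these arrays, and 2 arrays were almost dark. Between 0.887% and 10.3% of the 43653 probes were well above background, the scanner software's test of a spot against its local background. The C-14 replicate 4 array had 761 such probes and the C+7 replicate 4 array 387, against 2201 to 4486 on the other 6. All C-14 arrays lay on 1 slide and all C+7 arrays on another, so an effect of the slide cannot be told apart from one of time. One array, C-14 replicate 3, had been given a surface correction by the scanner software that the other 7 had not, and its processed signals reached 1212 for an ACTB probe (A_73_102689) that was not above background and read at most 12.3 after background subtraction alone. Values below are therefore background-subtracted intensities, in the scanner's arbitrary units, and comparisons rest on the 6 brighter arrays, 3 per time point, with all 8 arrays given beside them.

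Of the 29 probes, 12 were well above background on at least 1 array and 17 on none, or 58.6% against 81.0% of all probes with a gene name. ARPC1B, ARPC2, ACTB, CFL1, PFN1, RAC1 and VAV1 each had at least 1 probe above background. ARPC3, ARPC5 and CORO1A had none, so 3 of the 10 genes could not be measured, against 67.8% of all named genes. No member probe was above background on C+7 replicate 4. Only ACTB A_73_P471618 and the ARPC2 probes A_73_P313761 and A_73_P459401 were above it on C-14 replicate 4.

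**Figure D1:**
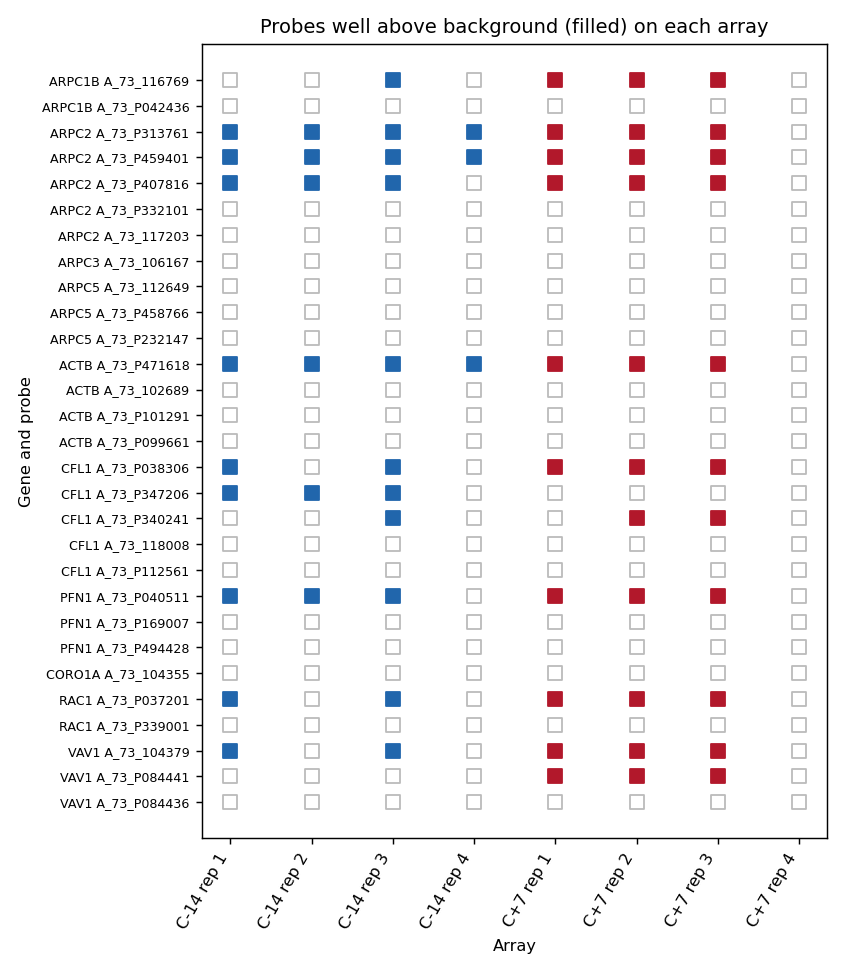
Each row is 1 of the 29 probes and each column 1 of the 8 arrays. A filled square marks a probe well above background (blue, C-14; red, C+7). The column of C+7 replicate 4 is empty, and the 17 rows without a filled square are probes seen on no array.

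ARPC1B, a WD-repeat subunit of the complex that blood cells use in preference to its close relative ARPC1A, was bright on the 3 brighter arrays after calving and near background on most arrays before it. Its probe A_73_116769 (NM_001014844) read 365, 572 and 445 on C+7 replicates 1 to 3 and 0.159 on the dark C+7 replicate 4. On C-14 replicates 1 to 4 it read 3.85, -0.546, 109 and 6.0, and C-14 replicate 3 was the only one of these above background. Each of the 3 brighter C+7 arrays lay above every C-14 array.

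After each array was scaled to the 75th percentile of the probes seen on all 6 brighter arrays, ARPC1B averaged -3.27 ± 0.47 (SD, n = 3) in C-14 and 0.54 ± 0.11 (SD, n = 3) in C+7 on the log2 scale. The difference was 3.80 with a standard error (SE) of 0.26. The C-14 mean is in part a limit, since 2 of its 3 arrays were set to -3.54, a common floor: on each array the dimmest above-background signal was taken, and the highest of these became the floor. The size of the difference therefore depends on that floor and on the single C-14 array with a reading. By size of difference this probe came 5th among the 2204 probes compared. The genes were selected on this contrast, so nothing is read from that rank. The other ARPC1B probe, A_73_P042436, was above background on no array, with readings from 1.41 to 13.9, so the pattern rests on 1 of the 2 probes. RNA was taken from bulk cells, in which fewer cells of a type and less RNA per cell cannot be told apart.

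ARPC2, which together with another subunit forms the core of the complex that sits on the mother filament, read the other way from ARPC1B. Its probe A_73_P313761 (NM_001034713) read 1271, 889 and 2514 on C-14 replicates 1 to 3 and 309, 773 and 459 on C+7 replicates 1 to 3. The dark arrays gave 28.7 (C-14 replicate 4) and -2.88 (C+7 replicate 4). Within the brighter arrays the time points did not overlap. The scaled difference, C+7 minus C-14, was -0.85 (SE 0.29) on the log2 scale.

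A pair of further ARPC2 probes read the same way. A_73_P459401 read 290, 377 and 568 on C-14 replicates 1 to 3 against 94.2, 91.5 and 115 on C+7 replicates 1 to 3, a scaled difference of -1.27 (SE 0.33). A_73_P407816 read 225, 272 and 284 against 33.6, 74.5 and 118, a scaled difference of -1.24 (SE 0.52). No reading of either probe after calving reached a C-14 reading of the brighter arrays. After scaling, C+7 replicate 3 of A_73_P407816, at -1.37, came close to its lowest C-14 value, -1.35. On C-14 replicate 4 the probes read 30.4 and 17.5. The remaining 2 ARPC2 probes, A_73_P332101 and A_73_117203, were above background nowhere and read between -9.89 and 3.29. The ARPC2 probes target 1 gene and are not independent of one another. On the authors' deposited log2 values of the same arrays, where the median of all probes shifts to 1.03, the 3 differences were 0.66 (A_73_P313761), 0.12 (A_73_P459401) and 0.03 (A_73_P407816), all below that median. Scaled over all probes, where the median of all probes is -0.58, they were -1.48, -1.91 and -1.88.

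The remaining subunits gave almost nothing to compare. The single ARPC3 probe read between -3.74 and 6.58, and the 3 probes of ARPC5, a small subunit at the edge of the complex, between -9.33 and 15.9. Among subunits outside the 10 genes, ACTR2, the Arp2 protein itself, had 1 of 4 probes (A_73_P049556) above background on the 3 brighter C+7 arrays. It read 27.2, 41.6 and 71.6 there and -5.95, 0.264 and 9.59 on C-14 replicates 1 to 3. Its scaled difference was 0.68 (SE 0.35), at least 1.61-fold since all C-14 arrays were at the floor, and it did not pass the threshold (adjusted p = 0.342, limma with Benjamini-Hochberg adjustment). Another ACTR2 probe, A_73_P068286, was above background on 1 C-14 array and on no C+7 array, and was not compared. It read 12.7, -0.760 and 17.1 on C-14 replicates 1 to 3 and 1.19, -13.6 and -0.417 on C+7 replicates 1 to 3. ACTR3, the Arp3 protein, was above background on 1 array, C+7 replicate 3, at 35.5. ARPC1A, ARPC4 and ARPC5L were above it on none, and neither was ARPIN, an inhibitor of the complex.

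ACTB encodes the cytoplasmic actin that the complex polymerises, and its readings split the C-14 arrays more than the time points. Probe A_73_P471618 (NM_173979) read 4172, 5528 and 5133 on C+7 replicates 1 to 3, a narrow range. On C-14 replicates 1 to 4 it read 1881, 28.8, 8993 and 59.8. Before scaling, the brightest C-14 array thus exceeded every C+7 array, and C+7 replicate 4 read 9.74.

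After scaling, ACTB read 1.79, -3.54 and 3.63 on C-14 replicates 1 to 3 and 3.94, 3.92 and 4.07 on C+7 replicates 1 to 3. The time points no longer overlapped. The difference was 3.35, but its SE was 1.90, because the SD was 3.72 in C-14 and 0.08 in C+7 (n = 3 each). Without C-14 replicate 2 the difference was 1.20. The other 3 ACTB probes were above background on no array, with readings from -3.91 to 12.3. Cytoplasmic actin genes are nearly identical in their coding sequence, and whether this probe also binds ACTG1 RNA was not tested.

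CFL1 gave 2 probes that disagreed. A_73_P347206 (NM_001015655) read 59.0, 95.3 and 138 on C-14 replicates 1 to 3, all above background, and 11.1, 23.0 and 22.1 on C+7 replicates 1 to 3, none of them above it. Its scaled difference was -1.06 (SE 0.36), at least 2.08-fold lower after calving, since every C+7 array was at the floor. With a normexp background correction, which moves the median of all probes to 0.69, it was 0.24. Bounds of the kind given here set the mean of the brighter time point against that floor.

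A_73_P038306 read 174, -7.48 and 375 on C-14 replicates 1 to 3 and 57.7, 174 and 88.2 on C+7 replicates 1 to 3. Its time points overlapped, and its scaled difference was 0.34 (SE 0.75), turning to -0.46 without C-14 replicate 2 and to -0.25 when scaled over all probes. On C-14 replicate 2 one cofilin probe thus gave 95.3, its middle C-14 reading, and the other gave -7.48. Another probe, A_73_P340241, was above background on C-14 replicate 3 (65.8) and C+7 replicates 2 and 3 (28.8 and 38.6) and was not compared, because neither time point had it on all of its arrays. The last 2 CFL1 probes read between -3.61 and 11.1. Opposite signs between probes of a gene were common on these arrays. Of 208 genes with 2 or more compared probes, 83 (39.9%) had probes of both signs, and the median range between the probes of a gene was 0.71 on the log2 scale.

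PFN1 was seen through 1 of 3 probes, A_73_P040511 (NM_001015592). It read 142, 72.6 and 173 on C-14 replicates 1 to 3 and 23.5, 40.4 and 79.8 on C+7 replicates 1 to 3. All C-14 readings but that of replicate 2 were above the C+7 readings. The scaled difference was -0.80 (SE 0.44; 0.44 with normexp beside the median of 0.69, and 0.077 on the deposited log2 values), and the scaled values met, at -1.94 on C-14 replicate 1 and on C+7 replicate 3. The other PFN1 probes read between -5.98 and 6.46. The only CORO1A probe, A_73_104355, read between -6.14 and 6.19 and was above background nowhere, so nothing can be said of coronin 1A here.

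RAC1, the GTPase that turns on the WAVE complex, was seen through A_73_P037201 (NM_174163). It read 195, 0.011 and 278 on C-14 replicates 1 to 3 and 88.3, 91.9 and 169 on C+7 replicates 1 to 3. It was above background on all of these except C-14 replicate 2. The scaled difference was 0.64 (SE 0.69) and fell to -0.12 without C-14 replicate 2, so it had no stable direction. Its other probe read between 0.042 and 8.32.

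VAV1, an exchange factor found mainly in blood cells, was seen through 2 of 3 probes. A_73_104379 (NM_001078074) read 229, 10.4 and 316 on C-14 replicates 1 to 3 and 118, 201 and 451 on C+7 replicates 1 to 3. Its time points overlapped, with a scaled difference of 1.49 (SE 0.83) that was 0.66 without C-14 replicate 2. A_73_P084441 read 18.2, 11.4 and 8.83 on C-14 replicates 1 to 3, none above background, and 19.6, 105 and 84.7 on C+7 replicates 1 to 3, all above it. Its scaled difference was 1.14 (SE 0.51), or 2.20-fold higher, with all C-14 arrays and also C+7 replicate 1 at the floor. Because that C+7 array was raised to the floor too, the fold is not a lower bound. With C-14 replicate 4 added the difference was 0. The third VAV1 probe read between 0.521 and 6.12.

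**Figure D2:**
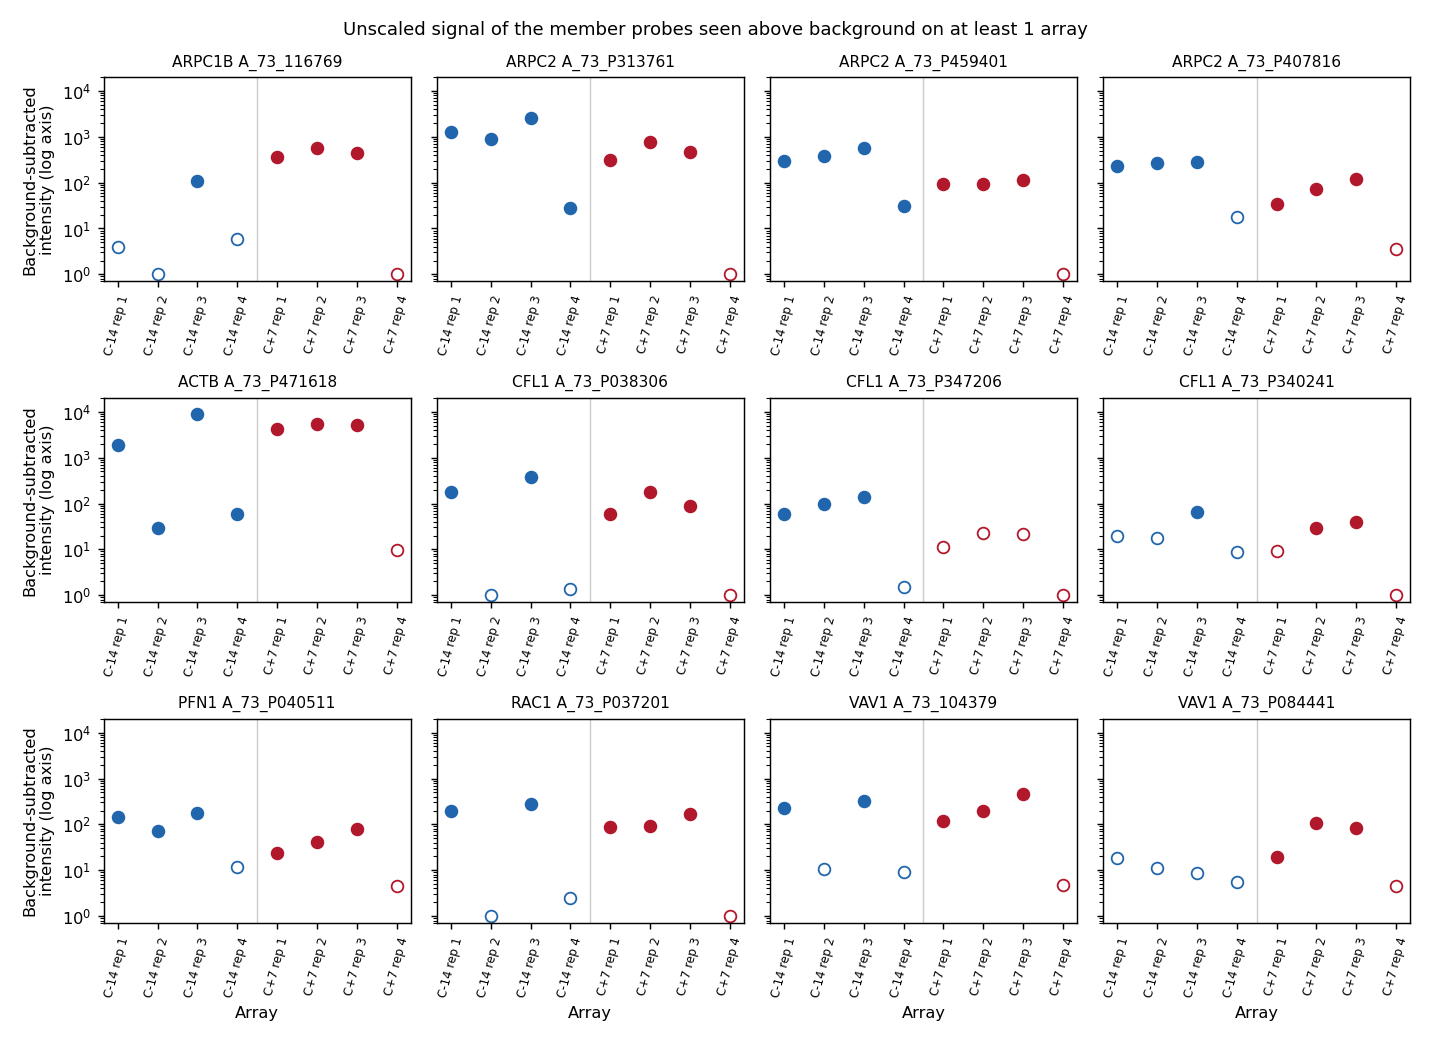
Background-subtracted intensity (log axis, arbitrary units, readings under 1 drawn at 1) of the 12 member probes seen on at least 1 array. Filled points are well above background, open points are not (blue, C-14; red, C+7). The ARPC1B readings of 365 to 572 on 3 C+7 arrays stand above all C-14 arrays, the 3 ARPC2 probes and CFL1 A_73_P347206 read lower on C+7 than on C-14 replicates 1 to 3, and the fourth array of each time point is dark.

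Side by side, the 11 compared probes, from 7 genes, did not move as a block. The scaled difference was positive for 6 of them and negative for 5, from 3.80 (ARPC1B) to -1.27 (ARPC2 A_73_P459401), with a median of 0.34 beside -0.06 over all 2204 compared probes. Within the complex itself ARPC1B read higher after calving while all 3 ARPC2 probes read lower at this scaling. The probes of VAV1 shared a sign, as did those of ARPC2. Both upstream genes, RAC1 and VAV1, had positive differences with large SEs.

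Across all 2204 probes, 113 (5.13%) were past an adjusted p of 0.05 (limma, Benjamini-Hochberg), and 1 of the 11 member probes, that of ARPC1B, was among them, which is a count and no test. Of the 113, 34 had a time point all at the floor, as did 448 of the 2204. Such a time point has no spread left, so their p-values do not measure a spread at both time points. The 113 were made of 42 higher after calving (1.91%) and 71 lower (3.22%). That split depends on the scaling: it was 17 higher and 99 lower when scaled over all probes, 53 and 96 with the median, 69 and 4 with normexp and 5 and 0 on the authors' deposited log2 values. It also rests on single arrays, with 68 probes without C-14 replicate 3, 57 without C+7 replicate 1, 8 without C+7 replicate 2 and 4 without C+7 replicate 3. In 6 of the 11 the time points did not overlap after scaling (ARPC1B and ACTB higher, the 3 ARPC2 probes and CFL1 A_73_P347206 lower), against 26.2% of the 2204. Since the genes were selected on this contrast, nothing is read from these counts.

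**Figure D3:**
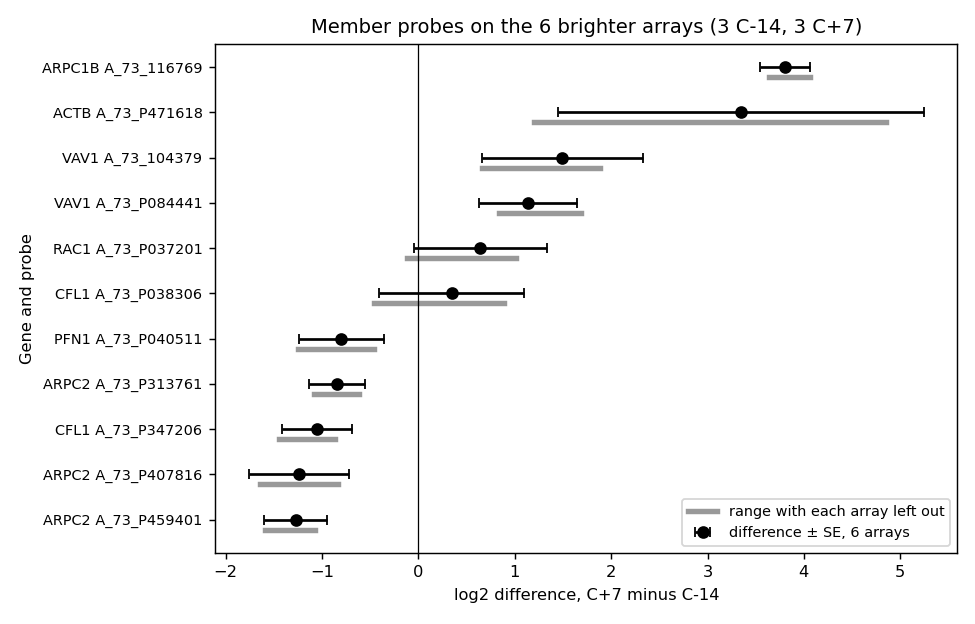
Scaled log2 difference, C+7 minus C-14, of the 11 compared probes on the 6 brighter arrays, with its SE (black) and the range over leaving out each array in turn (grey). The grey range of ARPC1B stays between 3.64 and 4.06, while those of RAC1 and CFL1 A_73_P038306 cross 0 and that of ACTB runs from 1.20 to 4.85. For ARPC1B 2 of the 3 C-14 values are the floor, which limits what its narrow range shows. With C-14 replicate 4 added its difference was 1.28.

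The C-14 replicate 2 array stood apart for several of these genes. Of 1421 probes above background on the other 5 brighter arrays, 76.8% were so on C-14 replicate 2, while the same share was 91.4% to 99.1% on each of the others. There, 6 of the 11 compared member probes were at the floor. ACTB, RAC1, VAV1 A_73_104379 and CFL1 A_73_P038306 read lower there than on any other brighter array, as 18.9% of the 2204 probes did. ARPC2 A_73_P459401, ARPC2 A_73_P407816 and CFL1 A_73_P347206 read higher there than on any other, as 36.3% did.

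**Figure D4:**
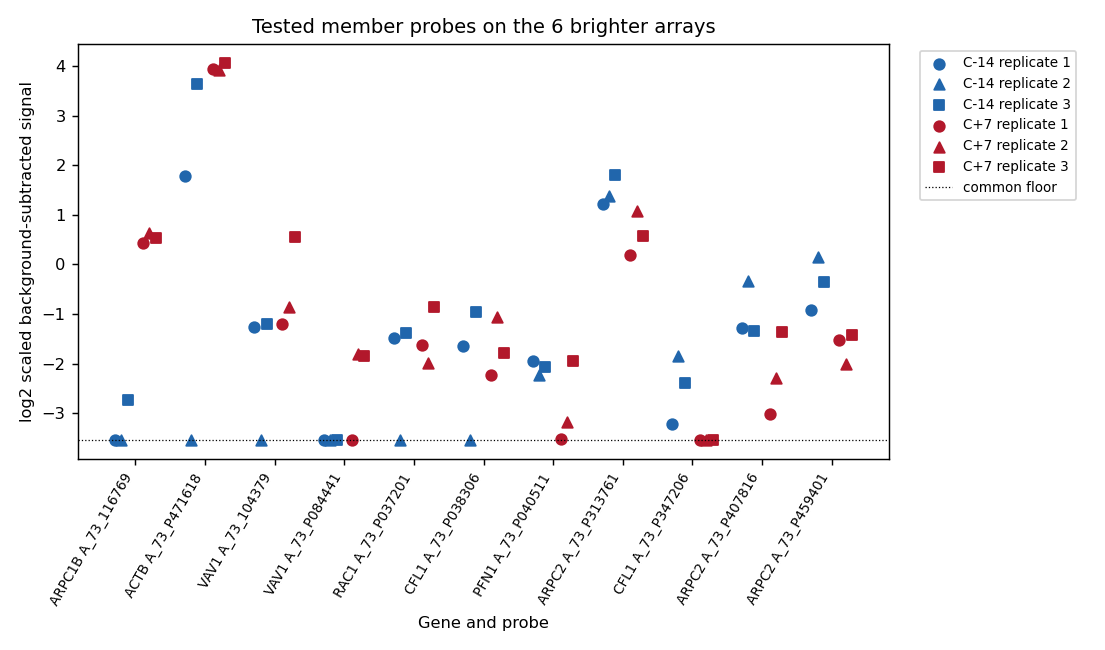
Scaled log2 signal of the 11 compared probes on each of the 6 brighter arrays (blue, C-14; red, C+7; triangles, replicate 2), with the common floor of -3.54 as a dotted line. The blue triangles of ACTB, VAV1 A_73_104379, RAC1 and CFL1 A_73_P038306 lie on the floor, below the other arrays, and those of 2 ARPC2 probes and CFL1 A_73_P347206 lie above all other arrays.

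Some pairs of probes followed each other over the 6 arrays. ARPC2 A_73_P459401 followed CFL1 A_73_P347206 (Pearson r = 0.95), and RAC1 followed VAV1 A_73_104379 (r = 0.93) and ACTB (r = 0.89). ARPC1B ran against the 3 ARPC2 probes, with r between -0.87 and -0.74. The 2 compared CFL1 probes had r = -0.49. These are descriptions over 6 arrays that share 2 slides and differ in brightness, and C-14 replicate 2 is 1 of the 6 points in each.

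With all 8 arrays, only ACTB A_73_P471618 and the ARPC2 probes A_73_P313761 and A_73_P459401 could be compared, because the other probes were missing from at least 1 array of each time point. On scaled processed signals the difference was 1.77 (SE 1.33) for ACTB, -0.57 (SE 1.18) for A_73_P313761 and -0.998 (SE 1.12) for A_73_P459401. These values depended on single arrays. ACTB ran from 0.58 without C-14 replicate 2 to 2.94 without C+7 replicate 4, A_73_P313761 from -1.08 without C+7 replicate 2 to 0.079 without C+7 replicate 4, and A_73_P459401 from -1.67 without C-14 replicate 3 to -0.35 without C-14 replicate 2. With background-subtracted signals the 3 differences were 1.40, -1.07 and -0.84, and with arrays weighted by their scatter 3.03, 0.14 and -0.86. Of the 470 probes tested none passed the threshold (0%), with 7 at an unadjusted p under 0.05 (limma, Benjamini-Hochberg). Arrays of the same time point scattered with a median SD of 1.59 (log2) over all 8 and of 0.43 over the 6 brighter ones. These 2 SDs are not like for like. The first is of processed signals without a floor over 470 probes. The second is of background-subtracted signals with a floor over 2204 probes, of which 448 had a time point all at the floor.

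The wider actin machinery was followed through 93 further genes, of which 77 have a probe and 35 were above background on at least 1 array. On the 6 brighter arrays 19 could be tested, each by its brightest probe, and none passed the threshold in either direction, against 5.13% of all probes (limma, Benjamini-Hochberg). At an unadjusted p under 0.05 there were 2 by these probes, BRK1 among them. The differences of the 19 were positive for 12 and negative for 7, with a median of 0.38. On all 8 arrays 4 could be tested and none passed, nor did any at an unadjusted p under 0.05: TMSB10 at -0.19 (SE 1.23), CAP1 at 0.42 (SE 1.11), ACTG1 at -0.37 (SE 1.14) and MYL6 at -0.78 (SE 1.25). These counts follow the symbols of the list, which holds TMSB4X. A probe named TMSB4 (A_73_P057821) is therefore not counted, and on all 8 arrays it was at -1.10 (SE 1.16) and did not pass.

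Among the nucleation promoting factors, which switch the complex on, 4 of 14 genes were tested. WASF2, a WAVE family protein, differed by 0.60 (SE 0.42), and WASHC1, which drives branching on endosomes, by 1.07 (SE 0.69). BRK1, the smallest subunit of the WAVE complex, differed by -0.71 (SE 0.15), with no overlap between the time points and an adjusted p of 0.0692 (limma). It passed without C-14 replicate 1 (-0.88, limma adjusted p = 0.0363) or C-14 replicate 2 (-0.73, limma adjusted p = 0.0450). These values are of its brightest probe. The other tested BRK1 probe (A_73_P420766) was at -0.14 (SE 0.41), and its time points overlapped. The group therefore held genes of both signs.

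Of 25 genes for monomer binding and filament turnover, 5 were tested and the brightest probe of each had a positive difference, with a median of 0.94, though none passed the threshold and TMSB10 was at -0.37 when scaled over all probes. Another probe of TMSB10 (A_73_P427106) and one of CAP1 (A_73_P490588) were negative, at -0.38 and -0.12. Further tested TMSB10 probes were at 2.35 (SE 1.08, A_73_P317526), with no overlap between the time points, and 0.24 (SE 0.24, A_73_106318). Neither passed the threshold. TMSB10, a thymosin that sequesters monomers, differed by 0.27 (SE 0.43). COTL1, a cofilin relative that binds filaments, differed by 2.16 (SE 1.22), and CAP1, which recycles monomers, by 0.95 (SE 0.79).

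Of 20 further actins, formins, crosslinkers and membrane links, 5 were tested. ACTG1, the other cytoplasmic actin, differed by 0.38 (SE 0.16) with no overlap between the time points, and by 1.83 (SE 0.76), again with no overlap, at its other tested probe (A_73_P467768). VASP, which lengthens filaments at the leading edge, differed by -0.76 (SE 0.36), and TLN1, which ties integrins to actin, by 0.15 (SE 0.25). These brightest probes of ACTG1 and TLN1 were at -0.25 and -0.49 when scaled over all probes. Further tested TLN1 probes were at 0.14 (A_73_P262256), 0.088 (A_73_P167822) and -0.52 (A_73_P086376). Of this group LCP1, named after its values were seen, differed by 1.18 (SE 0.53, limma adjusted p = 0.290), and its time points overlapped. All 3 C-14 arrays and 1 C+7 array were at the floor. LCP1 passed without C+7 replicate 1 (1.76, limma adjusted p = 0.0192), and its difference was 0 with C-14 replicate 4 added. The other tested LCP1 probe (A_73_P423986) was at -0.12 (SE 0.17). Among 7 myosins only the light chain MYL6 was tested, and its probes disagreed. The brightest was at -0.14 (SE 0.38), and the others were at 1.74 (SE 0.68, A_73_P097436) and 1.12 (SE 0.43, A_73_P107201), both with no overlap between the time points and neither past the threshold.

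**Figure D5:**
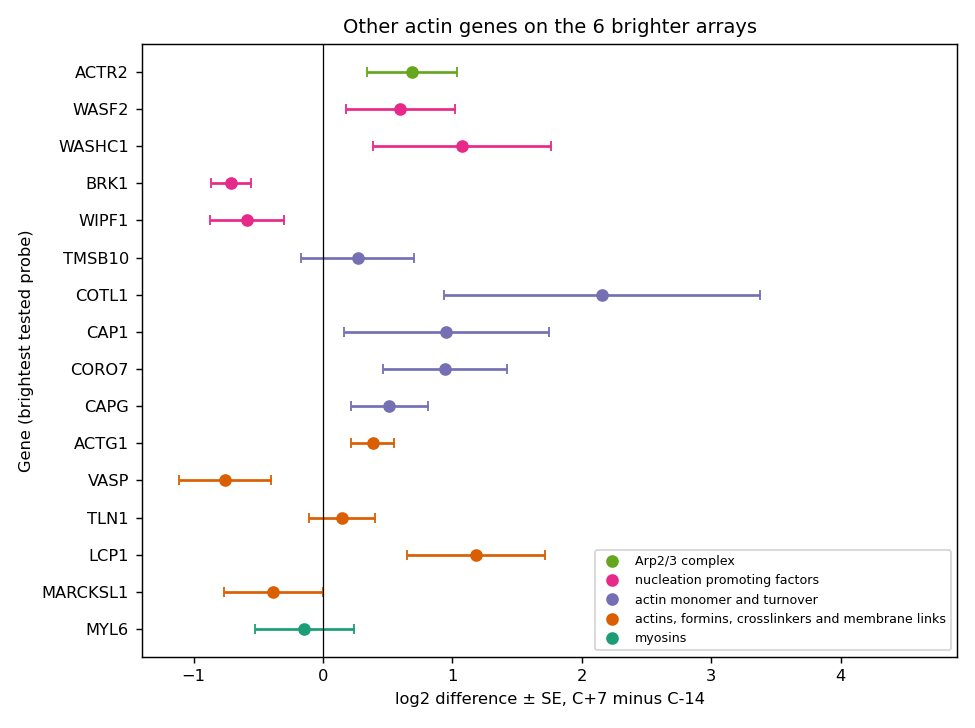
Scaled log2 difference, C+7 minus C-14, with its SE for 16 of the tested genes of the wider actin list on the 6 brighter arrays, coloured by sublist. None passed the threshold, and the intervals of COTL1 and CAP1 are the widest among the turnover genes, all 5 of which lie to the right of 0 at this scaling. One probe is drawn per gene, its brightest.

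By correlation over the 6 brighter arrays, the 5 genes whose probes read most like ARPC1B were ALOX5AP (r = 0.99), which presents arachidonic acid to the leukotriene-forming lipoxygenase, PRDX5 (0.98), a peroxiredoxin, DEFB7 (0.97), a beta-defensin, CDNF (0.96) and LGALS3BP (0.96). They were ranked among probes above background on all 6 arrays. ALOX5AP read -1.55, -1.75 and -0.87 on C-14 replicates 1 to 3 and 1.01, 0.96 and 1.57 on C+7 replicates 1 to 3. All 5 have positive differences, from 1.05 (LGALS3BP) to 2.57 (ALOX5AP), and a gap between the time points enters every one of these correlations.

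Markers of cell types moved with the time points too. Of 6 tested neutrophil markers 3 rose after calving: S100A12 by 2.29 (SE 0.32, limma adjusted p = 0.0274), LTF by 3.37 (SE 0.28, limma adjusted p = 0.00937) and MMP9 by 2.14 (SE 0.21, limma adjusted p = 0.0143). LTF and MMP9 were at the floor on all 3 C-14 arrays, which makes them at least 10.4-fold and 4.40-fold higher. Their p-values therefore measure no spread in C-14. With an array left out, S100A12 still passed only without C-14 replicate 2, LTF did not pass without C+7 replicate 2, and MMP9 did not pass without C+7 replicate 2 or C+7 replicate 3. S100A9, CXCR1 and CXCR2 did not pass, at 0.71 (SE 0.28), -1.25 (SE 0.25) and -0.06 (SE 0.14), and S100A8, CAMP and MPO were above background on none of the 6 arrays. The summed level of the neutrophil list was 3.67 to 4.70 in C-14 and 6.17 to 6.46 in C+7 on the log2 scale. Each list's sum is taken over unlogged signals, so its brightest gene weighs most and the sum does not speak for the whole list. S100A12 alone averaged 3.95 in C-14 and 6.24 in C+7.

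Of the markers of other blood cells, 2 of 7 for T cells, 1 of 4 for NK cells, 1 of 5 for monocytes and 1 of 4 for eosinophils fell, and most of the others could not be tested. CD247 and CD3E, the 2 tested of 7 T cell markers, fell by 2.64 (SE 0.36, limma adjusted p = 0.0272) and 2.03 (SE 0.14, limma adjusted p = 0.00774), and the summed T cell list went from 1.28 to 2.20 in C-14 to -0.21 to -0.10 in C+7. Of the NK cell markers GNLY fell by 1.67 (SE 0.26, limma adjusted p = 0.0353) and NKG7, at -0.56 (SE 0.11), did not pass, while the summed list was -1.05 to -0.61 in C-14 and -1.54 in C+7. CD3E, GNLY and NKG7 were at the floor on all 3 C+7 arrays, so their p-values measure no spread in C+7. The fall of CD3E is therefore a bound, at least 4.08-fold. The monocyte marker CSF1R fell by 1.62 (SE 0.26, limma adjusted p = 0.0382), with the summed list at -0.39 to 0.23 and then -1.14 to -0.97. CD247 and CSF1R did not pass without C-14 replicate 3 or any 1 of the C+7 arrays, CD3E did not without C+7 replicate 2 or C+7 replicate 3, and GNLY passed only without C-14 replicate 3. With processed signals S100A12 (limma adjusted p = 0.101), CD247 (0.186), CSF1R (0.710) and GNLY (0.393) did not pass, nor did S100A12 when scaled over all probes (limma adjusted p = 0.0590).

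ALOX15, the 1 tested eosinophil marker, fell by 3.02 (SE 0.15, limma adjusted p = 0.00266), also without any 1 array, and its list's sum went from between 0.16 and 0.54 to between -2.15 and -2.06. The other gene of that list with a probe, CCR3, was above background on no array. CD79A (-0.41, SE 0.48), a B cell marker, did not pass, nor did HBA (1.83, SE 0.69) of the red cell list, and the platelet markers PF4, ITGA2B and ITGB3 were above background nowhere. The summed red cell list was -1.31 to 0.41 in C-14 and 0.40 to 1.39 in C+7. ACTB, CFL1, PFN1, ARPC2, RAC1 and VAV1 are expressed in lymphocytes and monocytes as well as in neutrophils. ARPC1B, used by blood cells in preference to ARPC1A, is not particular to neutrophils either. The part of these cell types in the members' differences was not tested.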

How the data were processed

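One-colour Agilent arrays of cow neutrophil RNA were read from the deposited scanner files. Per the labels' protocols RNA was amplified and labelled with Cy3. The submitters' processing notes name Agilent Feature Extraction 9.1, and per the file headers it was version 10.10.1.1 with protocol GE1_1010_Sep10. The authors deposited intensity columns, and the background-subtracted and processed intensity and the above-background flag were used. The deposited series matrix holds log2 values, which followed the processed signals.

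Control spots and outlier flags were left out, and spots of a probe were averaged. Probes were named through accessions with the RefSeq table of assembly ARS-UCD2.0. Of 43653 probes, 26832 had 1 symbol and 16821 none. The files' annotation names UMD_3.1, so no coordinates are given. On 8 arrays, processed signals were scaled to the 75th percentile of the 115 probes above background on all 8. On the 6 arrays with over 2000 probes above background, background-subtracted signals were scaled over the 1091 probes above it on all 6, set to a floor of -3.54 (the highest of the arrays' lowest scaled above-background signals) and logged. Probes above background on every array of at least 1 time point were tested with limma 3.58.1 in R 4.3.3 (adjusted p under 0.05, Benjamini-Hochberg over all tested probes). The method was tested on simulated data. Normexp, an alternative, used median foreground signals. Other alternatives were scaling, filters, array weights, the series matrix values, the replicate number as a block, and each array left out.

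All member probes are named, and of the actin list the genes past the threshold and up to 3 of the brightest tested per sublist. The 5 genes most like ARPC1B and the tested cell markers are named too. Members and lists were chosen with earlier results of these data known. The results of 1 sublist of the actin list and of 1 cell marker are not reported here.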

Additional observations from a re-analysis of the deposited data

Results flagged for a closer look

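One reading stood far from its group by Dixon's test, among 24 groups of 4 arrays examined for the member probes, where chance alone gives about 1 in 20. On C+7 replicate 4 the ACTB probe A_73_P471618 had a scaled log2 processed signal of -2.84, while the other 3 C+7 arrays lay between 2.59 and 3.49. That array had 387 probes above background, the fewest of the 8, and the ACTB probe was not among them.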

How the results depend on the processing

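Leaving out each array changed the number of probes past the threshold on the 6 brighter arrays from 113 to between 4 and 169, on the 8 arrays from 0 to at most 1, and the number of actin list genes on the 6 from 0 to at most 1. In place of 113 probes, 12 passed with processed signals, 73 with normexp, 5 with the series matrix values, 50 when a probe had to be above background on all 6 arrays, 1 with no filter and 11 with C-14 replicate 4 added. On the 8 arrays no filter gave 1 probe and array weights gave 14. Median scaling and normexp each gave 1 actin list gene. With the replicate block the count was 0. The replicate numbers did not pair the arrays: deviations from the group means correlated at 0.06, -0.25 and 0.26 for numbers 1 to 3, and 1 of 6 arrays correlated best with its own number.

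The ARPC1B difference stayed positive in all 15 alternatives, from 1.28 with C-14 replicate 4 added, which raises the floor, to 6.40 on the series matrix values. It was past the threshold in 9 of the 15, which is again a count and no test. The 8 cell markers that passed did not with no filter or with the replicate block. With C-14 replicate 4 added 6 of them did not, with normexp 4 and on the series matrix values 7. Of these markers, GNLY turned to 0.020 with normexp and CSF1R to 0.018 on the series matrix values.

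Among the tested actin list genes and cell markers, differences that had not passed changed sign as follows. Sign changes of member probes stand with their values above, besides ARPC2 A_73_P313761 on the 8 arrays, at 0.058 without C-14 replicate 2. With normexp BRK1 was 0.49, WIPF1 0.46, MARCKSL1 0.71, CD79A 0.042, NKG7 0.41 and CXCR2 0.69. On the series matrix values BRK1 was 0.31, WIPF1 0.94, VASP 0.80, MYL6 1.26, CD79A 1.21, CXCR1 0.71, NKG7 0.52 and CXCR2 0.58. Scaled over all probes, where the median of all was -0.58, WASF2 was -0.036, TMSB10 -0.37, ACTG1 -0.25 and TLN1 -0.49. With processed signals MYL6 was 0.28 and CD79A 0.21, and with C-14 replicate 4 added MYL6 was 0.070. With an array left out TLN1 ran from -0.13 to 0.29, MARCKSL1 from -0.63 to 0.0082, CXCR2 from -0.15 to 0.091, MYL6 from -0.45 to 0.18 and TMSB10 from -0.17 to 0.62. On the 8 arrays TMSB10 was 0.16 both when scaled over all probes and on the series matrix values, and with array weights TMSB10 was 0.56, ACTG1 0.43 and MYL6 0.74. With 1 of the 8 left out TMSB10 ran from -1.06 to 0.84, CAP1 from -0.21 to 0.78, ACTG1 from -0.86 to 0.29 and MYL6 from -1.49 to 0.39. The cause was not tested. Probes not above background have only a floor, which limits every difference from them, and 3 arrays per time point limit the precision.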
